A study of Mus musculus with 18 samples.

Results

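The ligand-gated neurotransmitter receptor subunits are the proteins that build the ion channels opened directly by GABA, glycine, acetylcholine or glutamate. Their genes were taken by name: a gene was a member when its single symbol follows the naming of the GABA-A (Gabr), glycine (Glra, Glrb), nicotinic acetylcholine (Chrn), AMPA (Gria), kainate (Grik), NMDA (Grin) or delta (Grid) receptor families. The naming rule itself uses no measured value. It gave 51 genes with 104 probe sets, out of 18193 genes on the array. There were 15 GABA-A, 5 glycine, 15 nicotinic, 4 AMPA, 5 kainate, 6 NMDA genes and 1 delta gene, and other genes of these families were not analysed here. Where a gene has several probe sets, the one whose mean over the 18 arrays was highest stands for it and is called its brightest probe set.

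Expression was measured on 18 Affymetrix mouse arrays that follow HBG3 mouse ES cells on their way to motor neurons. The ES cells were sampled at day 0 (3 arrays), and the aggregates that they form, called embryoid bodies, at day 2 (4 arrays). Another 2 arrays hold day 2 embryoid bodies after 8 h with retinoic acid (RA), a vitamin A derivative that directs cells to a spinal neural fate. The remaining groups, of 3 arrays each, were taken at day 3 (neural precursors), day 4 (progenitor motor neurons) and day 7 (postmitotic motor neurons), and all of them received RA and a hedgehog agonist from day 2 on. Every group is the same cell line, which carries a GFP reporter for the motor neuron gene Mnx1, and no sorting of cells is given in the sources used here, so that each array holds the RNA of a whole culture. For the 8 h arrays the labels mention RA alone, which leaves it unsettled whether the hedgehog agonist was present, and 8 h arrays without RA were not analysed here. In such bulk samples, fewer cells of a type and less RNA per cell cannot be told apart.

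As background, receptors of the GABA-A, glycine and nicotinic families are built of several subunits around a pore, and the subunit make-up sets the ion, the kinetics and the place of the receptor. GABA-A and glycine receptors pass chloride, whereas nicotinic and ionotropic glutamate receptors pass cations. Spinal motor neurons are known to receive glycine and GABA from inhibitory interneurons and glutamate from excitatory inputs, and muscle fibres answer their acetylcholine through a nicotinic receptor with subunits of its own.

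Marker genes were checked against the stage labels. The mean log2 signal of 8 pluripotent cell markers was 12.05 to 12.51 on the day 0 arrays and 3.58 to 3.70 on the day 7 arrays. That of 10 pan-neuronal markers was 5.88 to 6.56 on day 0 and 12.09 to 12.24 on day 7, and that of 9 motor neuron markers was 2.80 to 3.19 and 6.82 to 7.63. Among the motor neuron markers, Chat, the enzyme that makes acetylcholine, stayed under the background level on every day 7 array. Markers of other cell types were also measured at day 7. The 8 neural progenitor markers averaged 5.97 to 6.17 on day 2, 8.88 to 9.04 on day 3, 9.88 to 10.03 on day 4 and 8.69 to 9.25 on day 7. Of these, 4 were called higher from day 2 to day 3, and 4 lower and 1 higher from day 4 to day 7. The glial markers averaged 3.23 to 3.66 on day 4 and 5.28 to 6.60 on day 7, with 3 of 8 called higher, while Gfap and Mag stayed under background on every day 7 array. The spinal interneuron markers averaged 3.04 to 3.32 on day 4 and 4.33 to 4.47 on day 7, with 2 of 11 called higher and 6 under background on every day 7 array. Over all genes, 3.40% were called higher from day 2 to day 3, and 8.81% higher and 6.58% lower from day 4 to day 7.

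Receptor subunit genes were sparse in ES cells and most numerous at day 7. The background level was set at a log2 signal of 4, under which 55.2% to 56.9% of all probe sets lay on each array. On every array of its stage, this level was reached by 8 of the 51 genes at day 0, 10 at day 2, 13 after 8 h of RA, 9 at day 3, 15 at day 4 and 24 at day 7. The share was 15.7% at day 0 and 47.1% at day 7. Over all genes it was 53.6%, 52.8%, 56.2%, 53.9%, 52.5% and 56.0% in stage order. A rule on every array is easier to meet with the 2 arrays after RA. Genes under background on every array of their stage also went from 33 at day 2 to 36 after RA. With a stricter level of log2 5, the counts were 5, 6, 8, 6, 7 and 21 in the same order. These counts carry no test.

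Of the 51 genes, 21 lay under background on all 18 arrays, which is 41.2% against 30.4% of all genes. They are the GABA-A subunits Gabra6, Gabrd, Gabre, Gabrg3, Gabrp, Gabrq, Gabrr1 and Gabrr2, the glycine subunits Glra3 and Glra4, the nicotinic subunits Chrna1, Chrna2, Chrna6, Chrnb3, Chrnd, Chrne and Chrng, the kainate subunit Grik4 and the NMDA subunits Grin2a, Grin2c and Grin3b. The highest value of any of them was 3.64, on a day 0 array of Gabrp. This set holds Chrna1, Chrnd, Chrne and Chrng, which together with Chrnb1 build the nicotinic receptor of skeletal muscle, and the 10 skeletal muscle markers averaged no more than 2.52 on any day 7 array. Only 5 genes reached background on all 18 arrays with their brightest probe set, namely Gabra5, Glrb, Chrna4, Chrna7 and Chrnb1. Other probe sets of 3 of them lay under background on every day 0 array. They read 2.24 to 2.47 for Chrna4, 2.24 for Chrna7 and 3.60 to 3.90 for Glrb.

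**Figure D1:**
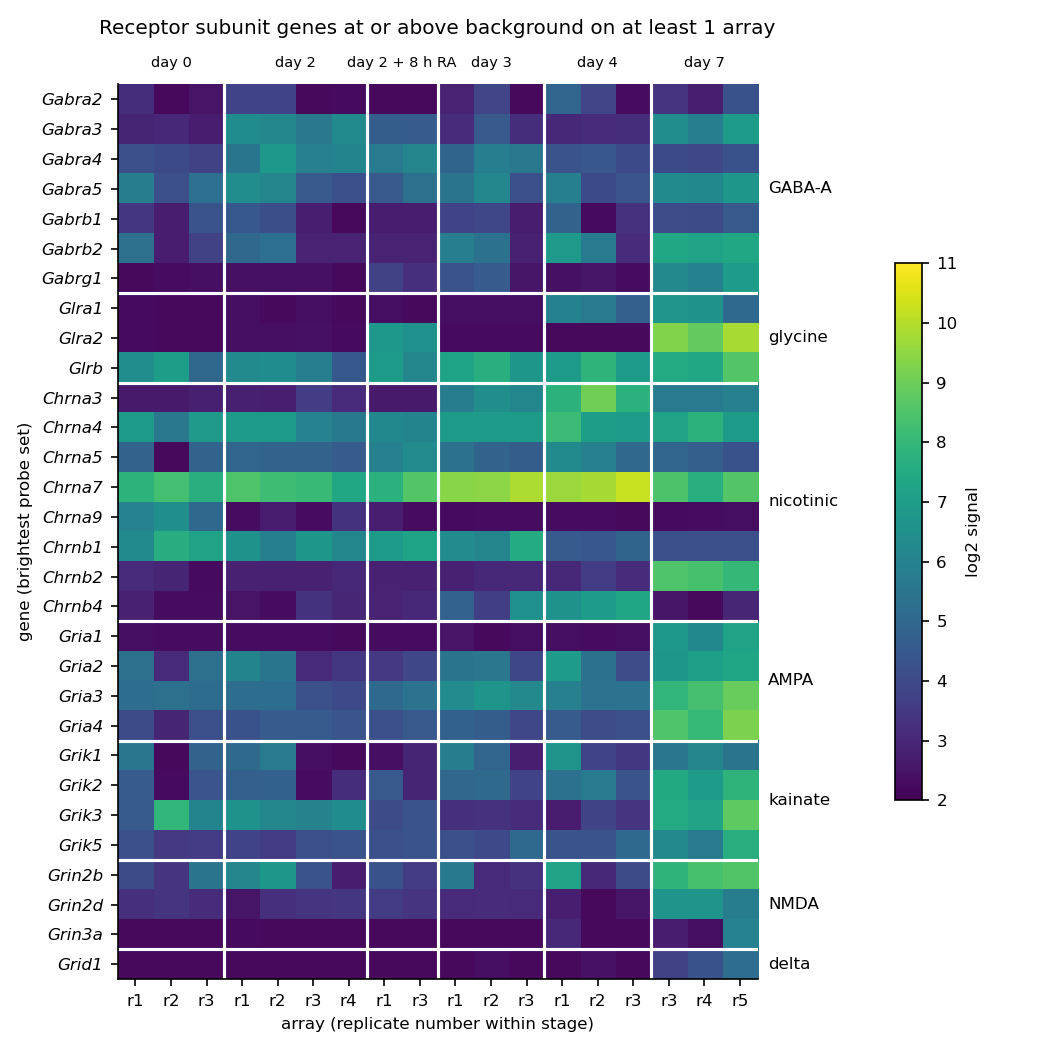
Log2 signal (colour) of the 30 receptor subunit genes that reached the background level of 4 on at least 1 array. Each row is the brightest probe set of a gene and each column 1 of the 18 arrays, grouped by stage, and the block of bright cells in the AMPA, kainate and NMDA rows lies in the day 7 columns, where 24 of the 51 genes reached background on every array.

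A gene was called changed when the limma test on its brightest probe set had an adjusted p below 0.01 and the change was 2-fold or more. Between neighbouring stages the largest number of calls fell on the step from day 4 to day 7, the step to postmitotic neurons. There, 11 of the 51 genes were called higher (21.6%) and 3 lower (5.88%), against 8.81% and 6.58% of all genes. The 11 were Glra2, Chrnb2, Grik3, Gria1, Gria4, Gabrg1, Grin2d, Gabra3, Gria3, Grid1 and Grik5, and the 3 were Chrnb4, Chrna3 and Chrna7. By family, 3 of 4 AMPA, 2 of 5 kainate, 1 of 6 NMDA, 1 of 5 glycine, 2 of 15 GABA-A and 1 of 15 nicotinic genes and the delta gene were higher. All 3 genes called lower were nicotinic. The median change was 0.0 on the log2 scale for the 51 genes and for all genes. In a fit of the day 4 and day 7 arrays alone, 7 of the 51 genes were called higher and 1 lower. Calls over all genes were not counted in that fit, so these numbers cannot be read as a result about the 51 genes.

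AMPA receptors carry most fast excitatory transmission, and their subunits gave high values at day 7. Gria1 lay between 2.24 and 2.48 on all 15 arrays of the earlier stages and at 6.80, 6.20 and 7.17 at day 7. The groups were far apart, and the day 7 signal was at least 6.61-fold above day 4 (log2 difference 4.41, SE 0.17, adjusted p = 6.5e-10). The day 7 SD was 0.49, and with the earlier arrays near the lowest values of the table the SE may be too small. Gria4 read 4.59, 4.12 and 4.19 at day 4 and 8.52, 8.04 and 9.21 at day 7, a 19.6-fold difference (log2 4.29, SE 0.35, adjusted p = 1.5e-06). Gria4 had been near the background level on the earlier arrays, where its lowest value was 2.94 and its highest 4.78. Gria3 was already measured in ES cells, at 5.24, 5.32 and 5.18 on day 0. It was called higher at day 3, with 6.34, 6.66 and 6.24 against 5.25, 5.24, 4.24 and 3.98 at day 2 (log2 1.74, SE 0.32, adjusted p = 0.0035), a call that was lost without day 2 replicate 3 or any 1 of the day 3 arrays (adjusted p = 0.011 to 0.022). At day 7 it reached 7.91, 8.35 and 8.91 after 5.91, 5.43 and 5.43 at day 4, which is 6.98-fold (log2 2.80, SE 0.34, adjusted p = 4.9e-05).

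Gria2 makes AMPA receptors impermeable to calcium, and here its probe sets differed. The brightest read 6.94, 5.39 and 4.11 at day 4 and 6.76, 7.08 and 7.31 at day 7. These groups overlap, and the gene was not called (log2 1.58, adjusted p = 0.31). A dimmer probe set lay between 2.24 and 2.30 on every array up to day 4 and at 9.16, 9.17 and 9.34 at day 7, so that no array overlapped (log2 6.97, SE 0.04, adjusted p = 8.8e-19). The last of its probe sets was also called higher, at 9.54, 9.38 and 10.14 at day 7 against 6.07, 5.17 and 3.27 at day 4 (adjusted p = 0.00022). Because 15 arrays of the dimmer probe set sat at the lowest values of the table, its SE may be too small.

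The stretch before the start of Gria2 is shown because it holds, as the only member window, a match to the RE1 element, the site of the repressor REST, which keeps neuronal genes silent in other cells. The search took TTCAGCACC, 2 free bases and GGACAGCGC on both strands, with at most 2 of the 18 letters different, in windows of 250 bases before and 50 after each gene's start from RefSeq. Such a match lay in 0.0365% of 32851 windows and in 1 of 43 windows of the receptor genes. In Gria2 it begins 173 bases before the start and differs in 1 letter, and the capitals mark it, on the opposite strand.
Gria2 (GRCm38.p6, chr3:80802836-80803085, minus strand): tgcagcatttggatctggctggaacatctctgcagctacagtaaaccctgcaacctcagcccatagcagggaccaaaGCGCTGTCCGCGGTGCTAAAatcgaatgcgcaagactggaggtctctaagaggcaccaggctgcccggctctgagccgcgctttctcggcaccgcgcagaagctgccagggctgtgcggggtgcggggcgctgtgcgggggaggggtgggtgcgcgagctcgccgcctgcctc
A match is a description of letters and not evidence of binding, and windows were found for 38 of the 51 genes.

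**Figure D2:**
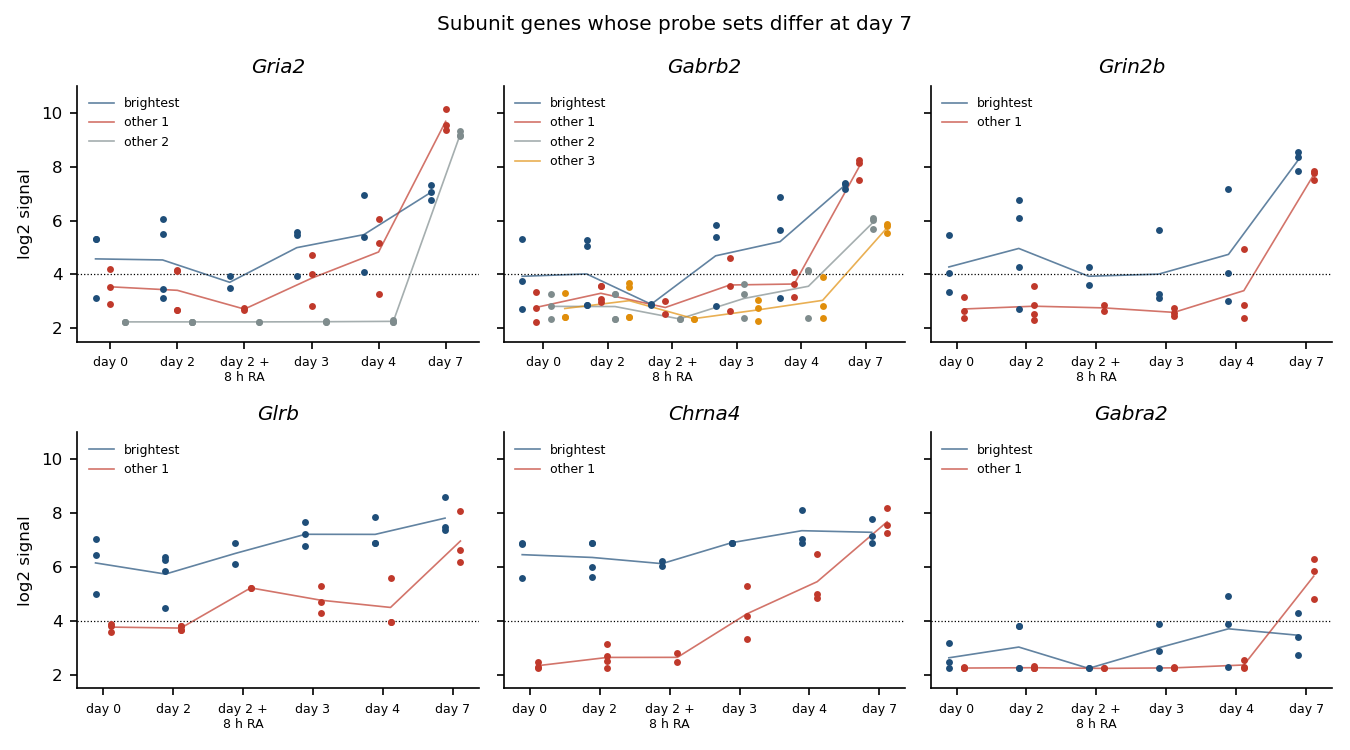
Log2 signal by stage for 6 genes that were not called from day 4 to day 7 on the brightest probe set (blue) but were called on another probe set. Points are arrays, lines join stage means, the dotted line is the background level of 4, and probe sets that never reached it are left out. For Gria2 the grey probe set lies between 2.24 and 2.30 on all arrays up to day 4 and above 9 at day 7.

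Besides Gria2, the genes called at day 7 only on a dimmer probe set were Gabrb2, Grin2b, Glrb, Chrna4 and Gabra2. When any probe set of a gene could make the call, 17 of the 51 genes were higher and 3 lower at day 7 than at day 4, against 10.9% and 8.17% of all genes. Grin2b, the NMDA subunit that prevails in the developing brain, is an example. Its brightest probe set read 7.17, 3.03 and 4.04 at day 4 and 7.84, 8.38 and 8.56 at day 7 and was not called (adjusted p = 0.056) with the day 4 arrays wide apart. Its other called probe set read 4.95, 2.38 and 2.87 and then 7.52, 7.76 and 7.84 (log2 4.31, SE 0.52, adjusted p = 4.6e-05). Gabrb2, a beta subunit to which GABA binds, behaved alike on a dimmer probe set, with 4.11, 3.65 and 3.18 at day 4 and 8.15, 7.50 and 8.26 at day 7 (log2 4.32, SE 0.45, adjusted p = 1.3e-05). Glrb, the neighbour of Gria2 on chromosome 3 and the beta subunit that anchors glycine receptors to gephyrin, differed less between the stages. Its brightest probe set read 6.89, 7.87 and 6.89 at day 4 and 7.49, 7.37 and 8.60 at day 7, and these ranges overlap. The dimmer one moved from 3.98, 3.95 and 5.58 to 6.63, 6.19 and 8.09 (log2 2.47, SE 0.48, adjusted p = 0.0021). On dimmer probe sets, Chrna4 rose by log2 2.22 (SE 0.49, adjusted p = 0.0056) and Gabra2, the neighbour of Gabrg1 on chromosome 5, by log2 3.30 (SE 0.26, adjusted p = 8.1e-07). For Glra1, Gabra3, Gabra4, Chrna7, Chrnb4, Gria3, Grik2, Grik3, Grin2d and Grid1, no other probe set reached background on any array. Their values rest on a single probe set.

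Kainate receptors modulate transmission on both sides of the synapse. Grik3 had a pattern with a dip: 4.57, 7.95 and 6.06 at day 0, then 6.61, 6.12, 6.04 and 6.38 at day 2. It read 4.07 and 4.30 after 8 h of RA, both below the day 2 arrays without passing the test. It was under background on all arrays of day 3 (3.24, 3.30, 3.16) and day 4 (2.73, 3.84, 3.35) and read 7.51, 7.24 and 8.76 at day 7. The fall from day 2 to day 3 was called at log2 -3.05 (SE 0.61, adjusted p = 0.0062) but not when any 1 of the 7 arrays of these stages was left out (adjusted p = 0.013 to 0.028). The rise from day 4 to day 7, at least 14.3-fold, was log2 4.53 (SE 0.65, adjusted p = 0.00021). Grik5, a subunit that needs a partner to form a channel, read 4.34, 4.34 and 5.07 at day 4 and 6.23, 5.74 and 7.63 at day 7. The groups do not overlap (log2 1.95, SE 0.44, adjusted p = 0.0062). This call was lost without day 4 replicate 1 or 2 or day 7 replicate 3 or 5 (adjusted p up to 0.028). Grik2 was not called from day 4 to day 7 (log2 2.30, adjusted p = 0.060) but was higher at day 7 (7.45, 6.94, 7.87) than at day 0 (4.60, 2.25, 4.37). That difference was log2 3.68 (SE 0.79, adjusted p = 0.0026), and was not called without day 0 replicate 2 or day 7 replicate 5, with adjusted p = 0.013 and 0.012. Grik1 had no call in any comparison, with 5.55, 6.11 and 5.47 at day 7.

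Among the NMDA subunits, Grin2d, which is expressed early in development, lay under background on every array before day 7, between 2.24 and 3.57. It read 6.66, 6.66 and 5.77 at day 7, at least 5.14-fold above day 4 (log2 3.86, SE 0.26, adjusted p = 2.1e-07). Its day 7 SD was 0.51, and the SE may be too small. Grin3a reached background on 1 array, a day 7 array at 5.98, with the others of that stage at 2.73 and 2.32. The delta receptor gene Grid1 was at 2.24 to 2.44 up to day 4 and read 3.77, 4.28 and 5.21 at day 7. It was called higher (log2 2.12, SE 0.24, adjusted p = 3.0e-05), although 1 of the day 7 arrays lay under background. The day 7 SD of Grid1 was 0.73, and its SE may be too small too. When values under background were raised to it, the change was log2 0.50 (adjusted p = 0.16).

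**Figure D3:**
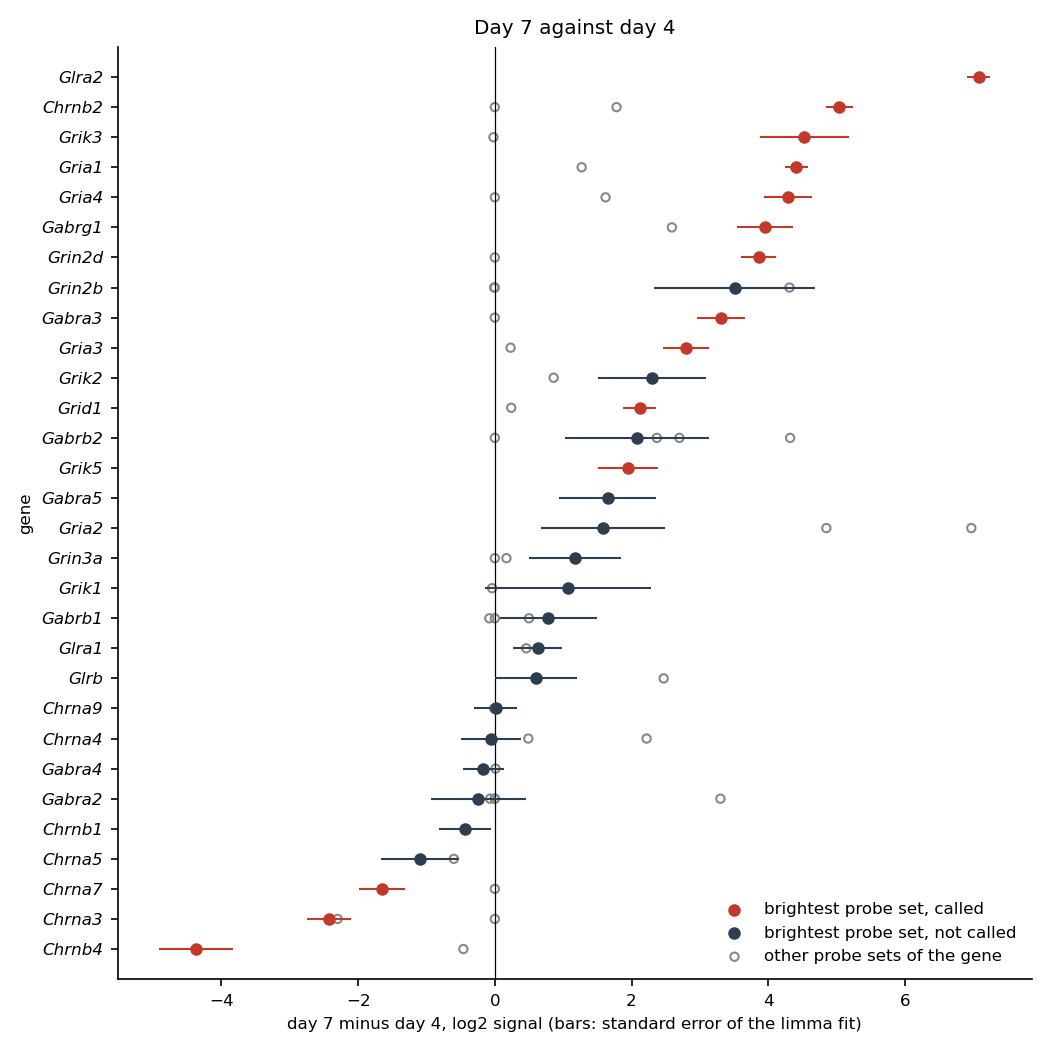
Day 7 minus day 4 in log2 signal for the 30 genes that reached background on at least 1 array. Filled points are brightest probe sets with the standard error of the limma fit, red where called, and open circles are the other probe sets of the same gene. Of the red points, 11 lie above 0 and 3 (Chrna7, Chrna3, Chrnb4) below it.

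Glycine receptor subunits showed the only call after 8 h of RA. Glra2, the alpha subunit known from fetal spinal cord, read 2.26, 2.24 and 2.24 at day 0 and 2.32, 2.32, 2.39 and 2.27 at day 2. After 8 h of RA the arrays read 6.80 and 6.51, far above every array of day 2. At day 3 and day 4 all 6 arrays were back between 2.24 and 2.27, and at day 7 the values were 9.28, 8.83 and 9.83. After RA the signal was at least 6.31-fold that of day 2 (log2 4.33, SE 0.18, adjusted p = 1.1e-07), and at day 7 at least 39.8-fold that of day 4 (log2 7.08, SE 0.17, adjusted p = 7.2e-12). The gene has a single probe set, and most of its other arrays lie at the lowest values of the table, where the SE may be too small. Before adjustment, 4 of the 51 genes differed 2-fold or more after RA with a limma p under 0.05. This looser count was not made over all genes. With adjustment, 1 of the 51 was called higher (1.96%) and 0 lower, against 0.308% and 0.0605% of all genes. The call was kept when any single array of these groups was left out. It was lost with the replicate number as a block in a fit of these groups alone (log2 4.30, adjusted p = 0.75), which leaves few residual degrees of freedom. Replicate numbers did not pair the arrays of these groups.

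The stretch before the start of Glra2 is shown for this pattern. It holds a GC box (GGGCGG) and a TATA box (TATAAA), both read on the opposite strand and set in capitals, which lie in 35.7% and 13.6% of all windows and in 46.5% and 14% of the member windows. A direct repeat of GGTCA with 5 bases between the copies was in 0.0761% of all windows and in no member window. That says only that these letters are not in these windows. The RAR repeats named in the paper are built of longer units, whose extra letter adds to the bases between the GGTCA copies. This search, with 5 bases between the copies, could therefore not find the paper's repeat with a 5-base spacer. The RAR repeats themselves were not searched for.
Glra2 (GRCm38.p6, chrX:165327394-165327643, minus strand): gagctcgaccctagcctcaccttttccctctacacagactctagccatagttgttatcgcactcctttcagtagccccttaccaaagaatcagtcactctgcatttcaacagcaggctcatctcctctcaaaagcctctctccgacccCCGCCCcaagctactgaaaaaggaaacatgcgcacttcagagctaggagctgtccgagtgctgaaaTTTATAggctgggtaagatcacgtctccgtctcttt

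Glra1, the alpha subunit of mature spinal glycine receptors, first reached background at day 4, on its brightest probe set only. It lay between 2.24 and 2.35 on every array up to day 3 and read 5.94, 5.75 and 4.77 at day 4. That rise was called (at least 2.80-fold, log2 3.14, SE 0.36, adjusted p = 0.00046), but not in a limma fit of the day 3 and day 4 arrays alone (adjusted p = 0.087). The other probe set of Glra1 read 2.25, 2.31 and 2.31 at day 4 and was under background on every array. At day 7 the brightest probe set read 6.69, 6.61 and 5.06, which overlaps day 4. The fit with the replicate number as a block gave the same difference with an adjusted p of 0.21, and with values under background raised to it the rise was log2 1.49 (adjusted p = 0.095).

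Of the GABA-A subunits, Gabra3 and Gabra4 rose at day 2, before RA. Both are alpha subunits, which form the GABA site with a beta subunit. Gabra3 read 2.94, 3.04 and 2.69 at day 0 and 6.39, 6.17, 5.62 and 6.27 at day 2, at least 4.32-fold higher (log2 3.22, SE 0.32, adjusted p = 5.9e-05). It read 4.66 and 4.63 after 8 h of RA, below all day 2 arrays without passing the test. It fell by 2.51 on the log2 scale from day 2 to day 3 (SE 0.32, adjusted p = 0.00026), where it read 3.14, 4.50 and 3.17, and stayed at 3.03, 3.14 and 3.17 at day 4. At day 7 the values were 6.46, 5.85 and 6.95, all above day 4 (at least 5.34-fold, log2 3.31, SE 0.35, adjusted p = 1.3e-05). Grik3, above, was likewise low at day 3 and day 4. Gabra4 rose from 4.20, 4.03 and 3.79 to 5.51, 6.81, 5.92 and 6.05 at day 2 (4.19-fold, log2 2.07, SE 0.28, adjusted p = 0.00068). It did not come back at day 7, where it read 4.03, 3.93 and 4.28. Gabrg1, a gamma subunit, was under background at day 0, day 2 and day 4, with 4.32, 4.58 and 2.56 at day 3. At day 7 it read 6.22, 5.94 and 6.96 (at least 5.18-fold above day 4, log2 3.95, SE 0.41, adjusted p = 1.2e-05), and its other probe set was also called (log2 2.59). Gabra5, whose receptors lie largely outside synapses, reached background on all arrays, between 4.01 and 6.78, and was called in no comparison.

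From day 0 to day 2, 2 of the 51 genes (3.92%) were called higher and 1 (1.96%) lower, against 1.67% and 2.15% of all genes. In a fit of the day 0 and day 2 arrays alone, Gabra3 was the 1 of the 51 genes called, and calls over all genes were not counted. The lower one was the nicotinic subunit Chrna9, known from hair cells of the ear, which read 5.98, 6.48 and 5.01 in ES cells. It lay between 2.24 and 3.31 on all later arrays, at least 3.53-fold lower at day 2 (log2 -3.16, SE 0.30, adjusted p = 3.5e-05). Its other probe sets stayed near 2.24 at every stage, so that this level rests on 1 probe set. The fibroblast list, a possible sign of feeder cells, averaged 4.10 to 5.53 at day 0 and 2.82 to 3.35 at day 2. Of its 7 genes 1 was called lower, and Lum and Postn were under background on every day 0 array. Whether this bears on Chrna9 was not tested.

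**Figure D4:**
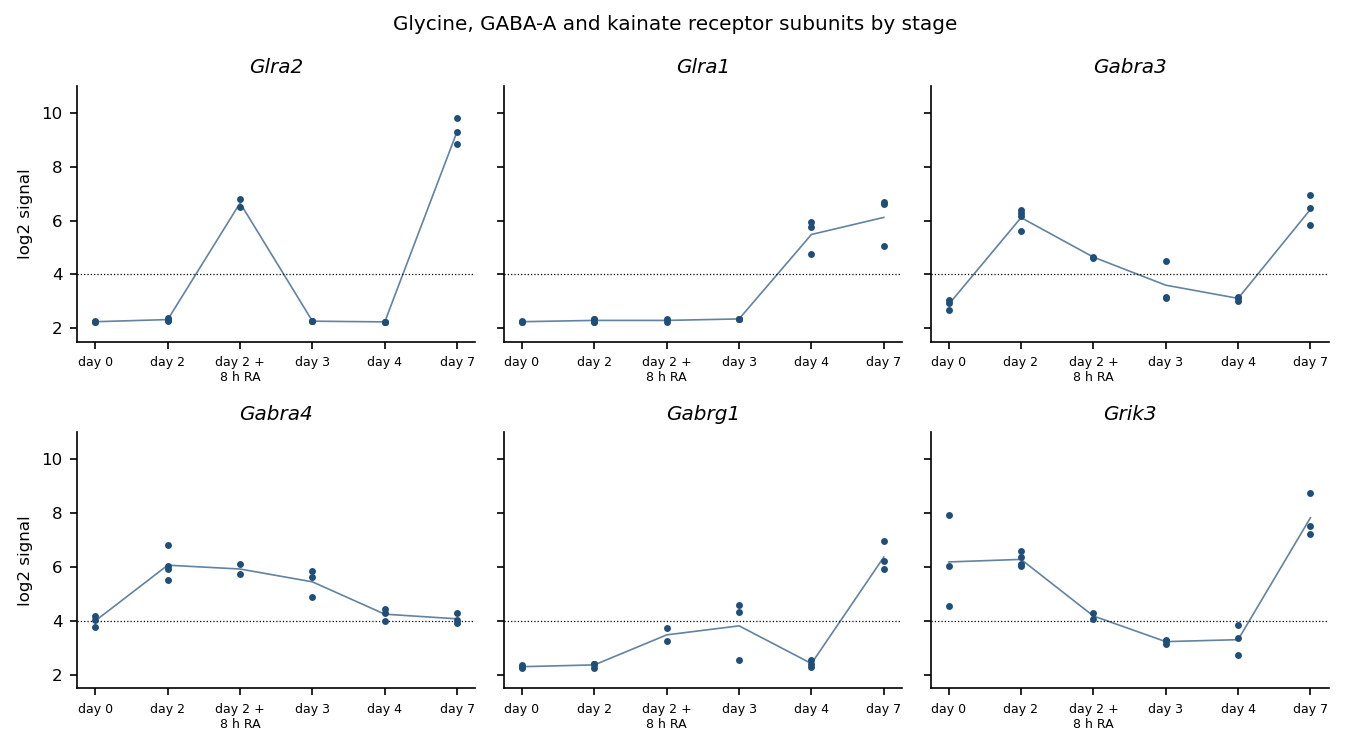
Log2 signal by stage of 6 inhibitory and kainate receptor subunit genes. Points are arrays, lines join stage means and the dotted line is the background level of 4. Glra2 is high after 8 h of RA (6.80 and 6.51) and at day 7 (8.83 to 9.83) and at 2.24 to 2.27 between them, and Gabra3 and Grik3 are low at day 3 and day 4.

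Among the nicotinic subunits, Chrna3 and Chrnb4 had their highest values at day 4. From day 2 to day 3, 3 of the 51 genes (5.88%) were called higher and 2 (3.92%) lower, against 3.40% and 3.22% of all genes, and from day 3 to day 4, 2 (3.92%) and 0, against 0.506% and 0.715%. Chrna3 and Chrnb4 encode the alpha and beta subunits of the nicotinic receptor of autonomic ganglia. In the RefSeq annotation (assembly GRCm38.p6), the genes Chrna5, Chrna3 and Chrnb4 follow each other on chromosome 9, and Chrna5 and Chrna3 overlap.

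Chrna3 lay between 2.65 and 3.64 on all arrays of day 0, day 2 and 8 h of RA. It read 5.78, 6.46 and 6.12 at day 3, 7.80, 9.06 and 7.74 at day 4 and 5.69, 5.68 and 5.93 at day 7. No stage from day 2 to day 7 overlapped the next. The rise to day 3 was log2 3.05 (SE 0.30, adjusted p = 2.4e-05), the rise to day 4 log2 2.08 (SE 0.32, adjusted p = 0.0040) and the fall to day 7 log2 -2.43 (SE 0.32, adjusted p = 9.3e-05). The call from day 3 to day 4 was lost without day 3 replicate 1 (adjusted p = 0.026) or day 3 replicate 3 (adjusted p = 0.015). The neural progenitor markers given above averaged higher at day 3 than at day 2 and lower at day 7 than at day 4, and their part in the values of Chrna3, Chrnb4 and Chrna7 was not tested. A dimmer probe set of Chrna3 also fell from day 4 to day 7 (log2 -2.30, adjusted p = 0.00024). Chrnb4 read 4.83, 3.67 and 6.53 at day 3, 6.59, 6.97 and 7.28 at day 4 and 2.55, 2.24 and 2.95 at day 7, where Chrna3 stayed above its day 0 values and Chrnb4 overlapped its own. Neither its difference from day 2 to day 3 (log2 2.25, adjusted p = 0.014) nor that from day 3 to day 4 (log2 1.94, adjusted p = 0.15) passed the test, but its fall from day 4 to day 7 did (at least 7.72-fold, log2 -4.37, SE 0.54, adjusted p = 5.9e-05). Chrna5, an accessory subunit, had no call, with 6.29, 5.91 and 5.02 at day 4 and 4.92, 4.74 and 4.27 at day 7. The stretches before the start of Chrna3 and Chrnb4, neighbouring genes that were both called lower from day 4 to day 7, are shown with the GC box in capitals. Chrna3 has 1 within them, on the opposite strand, and Chrnb4 has none.
Chrna3 (GRCm38.p6, chr9:55026563-55026812, minus strand): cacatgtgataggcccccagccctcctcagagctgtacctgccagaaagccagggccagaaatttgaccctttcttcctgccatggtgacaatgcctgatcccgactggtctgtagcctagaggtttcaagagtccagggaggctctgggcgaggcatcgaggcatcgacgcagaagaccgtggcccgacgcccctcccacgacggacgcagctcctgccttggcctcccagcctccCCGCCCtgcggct
Chrnb4 (GRCm38.p6, chr9:55048545-55048794, minus strand): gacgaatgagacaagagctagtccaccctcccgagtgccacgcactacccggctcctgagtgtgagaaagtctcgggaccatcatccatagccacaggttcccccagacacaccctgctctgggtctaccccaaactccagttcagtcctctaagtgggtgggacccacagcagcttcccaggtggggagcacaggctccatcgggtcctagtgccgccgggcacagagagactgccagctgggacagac

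Chrna7, which forms calcium-permeable channels on its own, was measured at every stage, beginning with 7.83, 8.31 and 7.63 at day 0. It read 8.52, 8.21, 8.09 and 7.38 at day 2, 9.41, 9.43 and 9.89 at day 3, 9.66, 9.78 and 10.26 at day 4 and 8.48, 7.68 and 8.58 at day 7. The day 3 and day 4 arrays lay above all others. The rise to day 3 was log2 1.53 (SE 0.31, adjusted p = 0.0078), and the call was lost when any array of these stages other than day 2 replicate 1 was left out (adjusted p = 0.014 to 0.044). The fall from day 4 to day 7 was log2 -1.65 (SE 0.34, adjusted p = 0.0030), and it was not called without day 4 replicate 3 (adjusted p = 0.015) or day 7 replicate 4 (adjusted p = 0.016).

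Chrnb2, which with Chrna4 forms the main high-affinity nicotine receptor of the brain, was under background on every array up to day 4 (2.26 to 3.56). At day 7 it read 8.52, 8.37 and 7.98, at least 19.5-fold above day 4 (log2 5.04, SE 0.20, adjusted p = 1.0e-09). Chrnb1, the beta subunit of the muscle receptor, was instead highest early. It read 6.27, 7.62 and 7.18 at day 0, 4.57, 4.43 and 4.89 at day 4 and 4.18, 4.21 and 4.19 at day 7. The day 7 arrays were 7.10-fold below day 0 (log2 -2.83, SE 0.38, adjusted p = 6.7e-05), and the other subunits of the muscle receptor were under background throughout.

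**Figure D5:**
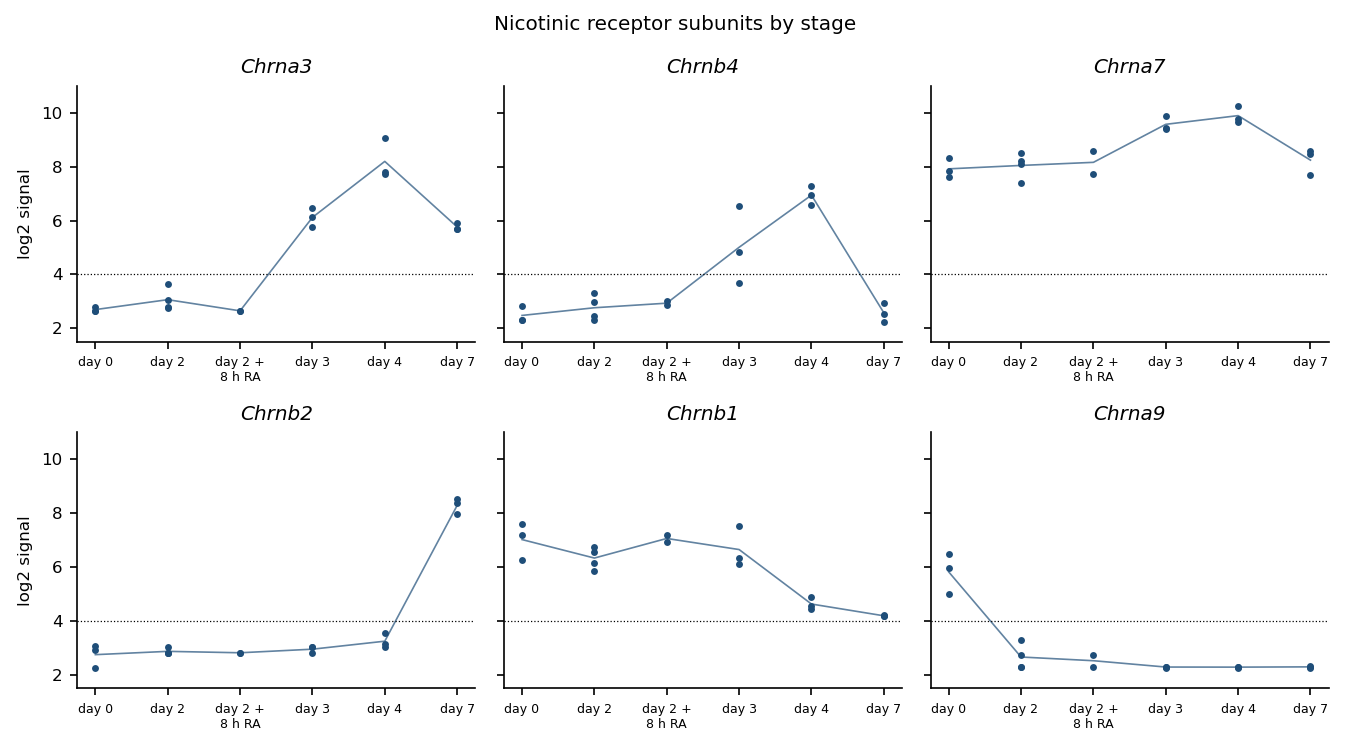
Log2 signal by stage of 6 nicotinic receptor subunit genes. Points are arrays, lines join stage means and the dotted line is the background level of 4. Chrna3 and Chrnb4 are highest at day 4 (7.74 to 9.06 and 6.59 to 7.28), Chrnb2 reaches background only at day 7, and Chrna9 only at day 0.

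Replicate numbers paired the arrays from day 2 to day 3 and from day 3 to day 4. With the number as a block, in fits of the arrays of these stages alone, 0 of the 51 genes were called by limma in either step. Before adjustment, 7 and 4 genes differed 2-fold or more with p under 0.05. Such fits leave few residual degrees of freedom, and calls over all genes were not counted in them. The 0 therefore cannot be read as a result about the 51 genes. The sizes hardly moved for Chrna3, at log2 3.05 (adjusted p = 0.096) to day 3 and log2 2.08 (adjusted p = 0.23) to day 4. Arrays of the same stage also differed for several brightest probe sets. Grik1 read 5.11 and 5.72 on day 2 replicates 1 and 2 and 2.38 and 2.24 on replicates 3 and 4. Gabrb2 read 5.05 and 5.27 against 2.88 and 2.88 on the same arrays, and 5.85 and 5.41 against 2.82 at day 3. Gria2 read 6.07 and 5.51 against 3.11 and 3.47 at day 2. With day 2 replicates 1 and 2 alone, 1 gene was called higher and 1 lower at day 3, and with replicates 3 and 4 alone 3 and 1. Leaving out day 2 replicate 2, 3 or 4 or any 1 of the day 3 arrays left 2 or 3 of the 5 calls.

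Against day 0, 13 of the 51 genes were called higher at day 7 (25.5%) and 2 lower (3.92%), where 14.3% and 13.9% of all genes were. The median log2 difference was 0.65 for the 51 genes and 0.0 for all genes. Besides genes named above, Glra1 was among those higher (at least 4.35-fold, log2 3.88, adjusted p = 2.2e-06), as was Chrna3 (at least 3.40-fold, log2 3.07, adjusted p = 5.5e-06). The 2 lower genes were Chrna9 and Chrnb1. This comparison shares its day 7 arrays with that against day 4.

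Genes for proteins that place receptors at the synapse or bind to them were also called from day 4 to day 7. Of 42 measured scaffold and auxiliary genes, 19 were called higher and 2 lower from day 4 to day 7, with a median log2 change of 1.13, where 8.81% of all genes were called higher and 6.58% lower and the median was 0.0. The lists that follow are read against the same shares. The largest were Cbln2, a secreted synapse organizer (log2 7.96, at least 118-fold), the postsynaptic adhesion protein Nlgn3 (log2 6.46, at least 29.8-fold) and the AMPA receptor partners Cacng4 (log2 5.03, 32.7-fold) and Cnih2 (log2 4.93, 30.5-fold). Rapsn and Musk, which gather nicotinic receptors at the muscle endplate, lay near 2.24 at both stages. Of 16 genes for the chloride gradient and transmitter handling, 5 were called higher and 0 lower, with a median of 1.47. They include Slc17a6, which loads glutamate into vesicles (log2 7.71), Slc1a1, a neuronal glutamate transporter (log2 6.83), Slc18a3, which loads acetylcholine (log2 4.33), and Slc12a5, which exports chloride and so sets how GABA and glycine act (log2 3.89). Of 10 metabotropic receptors of the same transmitters 2 were called higher, Gabbr1 (log2 2.23) and Grm4 (log2 1.81), and of 9 other ligand-gated channels 1, the ATP receptor P2rx7 (log2 4.61). Day 7 also brought the glial and interneuron markers given above, and what part these cells have in the day 7 signals was not tested.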

How the data were processed

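RNA of the 18 samples was amplified by the authors and hybridized to Affymetrix mouse arrays. The deposited table gives a log2 signal for each probe set, made by the authors with GCRMA over all arrays, and versions are not given in the sources used here. They were used as deposited. Of 45101 probe sets, 64 controls were left out, 45037 were tested and 34945 carry 1 gene symbol. Groups come from the labels. Tests used limma 3.58.1 (R 4.3.3), with 6 group means on all arrays (12 residual and 0.515 prior degrees of freedom) and Benjamini-Hochberg adjustment over all probe sets tested. The number of arrays limits the precision, and p-values measure the spread between arrays described as biological replicates. That spread is pooled over the 6 groups, so for genes near the lowest values at most stages it can understate the spread at day 7.

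Folds against a group with every array under log2 4 are lower bounds with that mean set to 4. Per-array values were given for called genes, up to 15 from day 4 to day 7 and up to 5 in other comparisons, and for genes at log2 6 or above on every day 0 or day 2 array. Probe-set examples beyond these were chosen after their values were seen. The members and lists were chosen with earlier results of these data known. Replicate numbers were read as pairs where deviations from stage means correlated across probe sets, at 0.345 to 0.482 between day 2 and day 3 and at 0.422 to 0.746 between day 3 and day 4. The fit was tested on simulated data. Promoter windows come from RefSeq (GRCm38.p6), and protein sequences were not used here.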

Additional observations from a re-analysis of the deposited data

Results flagged for a closer look

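Arrays far from the others of their stage were looked for among the 4 day 2 arrays, since the other stages hold 2 or 3. Of 19 named genes, 2 were marked. The rule marks about 1 in 20 groups by chance when values are not tied. The values below are tied or nearly so, and that rate does not apply to them. Chrnb2 read 3.03 on day 2 replicate 4, against 2.82 on each other day 2 array. Gabrg1 read 2.24 on the same array, against 2.41 to 2.42 on the others. All these values lie under the background level.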

How the results depend on the processing

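With the arrays of the compared stages alone, 1 of 3 genes stayed called from day 0 to day 2. The numbers were 2 of 5 from day 2 to day 3 and 0 of 2 from day 3 to day 4. From day 4 to day 7 it was 8 of 14. In the day 3 to day 4 fit, 4 genes differed 2-fold or more with an unadjusted limma p under 0.05. With values under background raised to it, 1 was called from day 3 to day 4, and with day 2 replicates 1 and 2 only, 2 from day 2 to day 3. Leaving out 1 array at a time gave 2 to 4 calls from day 2 to day 3 and 1 to 3 from day 3 to day 4, and a lone RA array was assumed to vary like the other groups. Log2 5 as background gave 5, 6, 8 and 7 genes at day 0, at day 2, after RA and at day 4. The fit with the replicate number as a block called 0 genes by limma after RA and in each step from day 0 to day 4. For RA and then these steps in order, 1, 3, 7 and 4 genes differed 2-fold or more with an unadjusted p under 0.05. Numbers pair arrays only from day 2 to day 3 and from day 3 to day 4. These block fits leave few residual degrees of freedom, and calls over all genes were not counted in them. No paired analysis was possible because day 7 shares only 1 replicate number with day 4 and with day 0. Among single genes under all alternatives, 638 values kept direction and side of the threshold, 68 lost the call and 0 reversed. The probe set brightest at day 7, chosen after seeing the data, gave 15 genes higher and 3 lower from day 4 to day 7. This choice rests on the day 7 values that were then tested, and favours calls of higher. Calls over all genes were not counted under it, so these numbers cannot be read as a result about the receptor genes. The causes were not tested.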
